A study of Rattus norvegicus with 25 samples.

Results

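The RNA of McArdle-RH7777 cells, a rat hepatoma line in use for work on lipoprotein secretion, was compared between cells carrying a Sar1B that cannot hydrolyze GTP, Sar1B:H79G, and cells carrying wild-type Sar1B. Sar1B is the small GTPase that starts the assembly of COPII, the coat of the vesicles that carry new proteins out of the endoplasmic reticulum (ER). In its GTP form Sar1B recruits the inner and outer coat to the ER membrane, and GTP hydrolysis lets the coat come off. The H79G substitution of histidine by glycine keeps the protein in the GTP form. Cells in which ER proteins or amino acids are out of balance can switch on the integrated stress response, in which kinases phosphorylate the initiation factor eIF2α, and the transcription factors ATF4, CHOP (gene Ddit3) and ATF3 then raise genes of amino acid supply and of recovery from the block.

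The comparison used 16 of the 25 arrays and 4 of the 7 cell lines of the experiment. The Sar1B:H79G and Sar1B groups each had 8 arrays, 4 from each of 2 stable lines. Every line, controls included, carried the tetracycline repressor vector pcDNA6/TR and a pcDNA4/TO vector, which in the 2 groups held a FLAG-tagged human SAR1B with or without the H79G mutation. The lines were grown in 10 µg/ml blasticidin and 250 µg/ml Zeocin and received 1 µg/ml tetracycline for 24 h before the RNA was taken. A line is 1 selected clone, and per the study the repeat arrays of 1 clone are technical, so their values were averaged and the clonal line served as the replicate, with 2 per group. The recombinant protein was not present at the same level in the 2 constructs, so the mutation and the amount of recombinant protein cannot be told apart. Levels of the Sar1A line, from the same array series, and of the 2 control lines, from another array series, are given beside the results. All values are log2 signals, and a difference is Sar1B:H79G minus Sar1B, so that 1 is a doubling. The order of genes by difference does not compare levels between genes, because probe sets differ in brightness.

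Array medians lay between 8.10 and 8.16, and pairs of arrays had median correlations of 0.996 for the same line, 0.990 for different lines of 1 group and 0.976 across the 2 groups. The hepatocyte list had 11 of its 12 markers measured, among them Afp at 14.20 and 14.25 in the Sar1B:H79G lines and 14.28 and 14.49 in the Sar1B lines, and 2 of the 11, Apob and Hnf4a, were lower in Sar1B:H79G. The summed signal of that list was 16.59 and 16.49 in the Sar1B:H79G lines and 16.74 and 16.79 in the Sar1B lines. No measured marker of cholangiocytes (5 genes), stellate cells (8), macrophages (6), endothelial cells (5) or lymphocytes (5) was called, and because no detection calls were used, none can be said to be at background. For β-actin, the 5′ signal minus the 3′ signal, which reads RNA integrity and labelling, was -0.71 and -0.63 in the Sar1B:H79G lines and -0.50 and -0.49 in the Sar1B lines, and that of Gapdh was -0.19 and -0.20 against -0.18 and -0.14. That of hexokinase went the other way, at -0.69 and -0.66 in the Sar1B:H79G lines and -0.81 and -0.76 in the Sar1B lines. The part of these gaps in the results was not tested.

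The rat probe sets cannot check the human construct. Endogenous Sar1b had signals of 11.24 and 11.29 in the Sar1B:H79G lines and 11.31 and 11.41 in the Sar1B lines, a difference of -0.09 (adjusted p = 0.63). Sar1a, the paralog, was at 12.75 and 13.01 against 12.05 and 11.46 and rose by 1.13 (standard error 0.20, adjusted p = 0.023), a call that was lost without Sar1B:H79G line 2. A second Sar1a probe set gave a difference of 1.00 (adjusted p = 0.029). The Sar1A line was at 13.10 on the first probe set and at 12.07 on the second, and the control lines were at 11.47 and 11.31 on the first, so that the 2 probe sets place the Sar1A line differently.

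Many genes differed between the mutant and the wild-type lines, and falls outnumbered rises. Of 14217 genes, each represented by its brightest probe set, 697 were called higher in Sar1B:H79G (4.9% of the genes) and 1021 lower (7.18%) at a limma adjusted p under 0.05, and the median difference of all genes was 0.012. Among all 31042 probe sets 1037 were called higher (3.34%) and 1643 lower (5.29%). Of the called genes, 128 rose and 173 fell by at least 2-fold, and 14 rose and 18 fell by at least 4-fold. The share called depended on brightness. With all probe sets split by signal into 4 equal bins, 0.193% of the dimmest bin were called higher and 0.966% lower, beside 9.65% and 11.4% of the brightest.

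Across all probe sets the difference between the lines numbered 1 and that between the lines numbered 2, which share no line, had a correlation of 0.71, given as a description. When each of the 4 lines was left out in turn, 592 of the 1718 called genes, 255 higher and 337 lower, kept their call in all 4 fits, and 252 kept it in none. The count of called probe sets fell most without Sar1B line 2, from 2680 to 1232. A call that was kept in all 4 fits is called stable below, and for the others the lines without which it was lost are named.

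**Figure D1:**
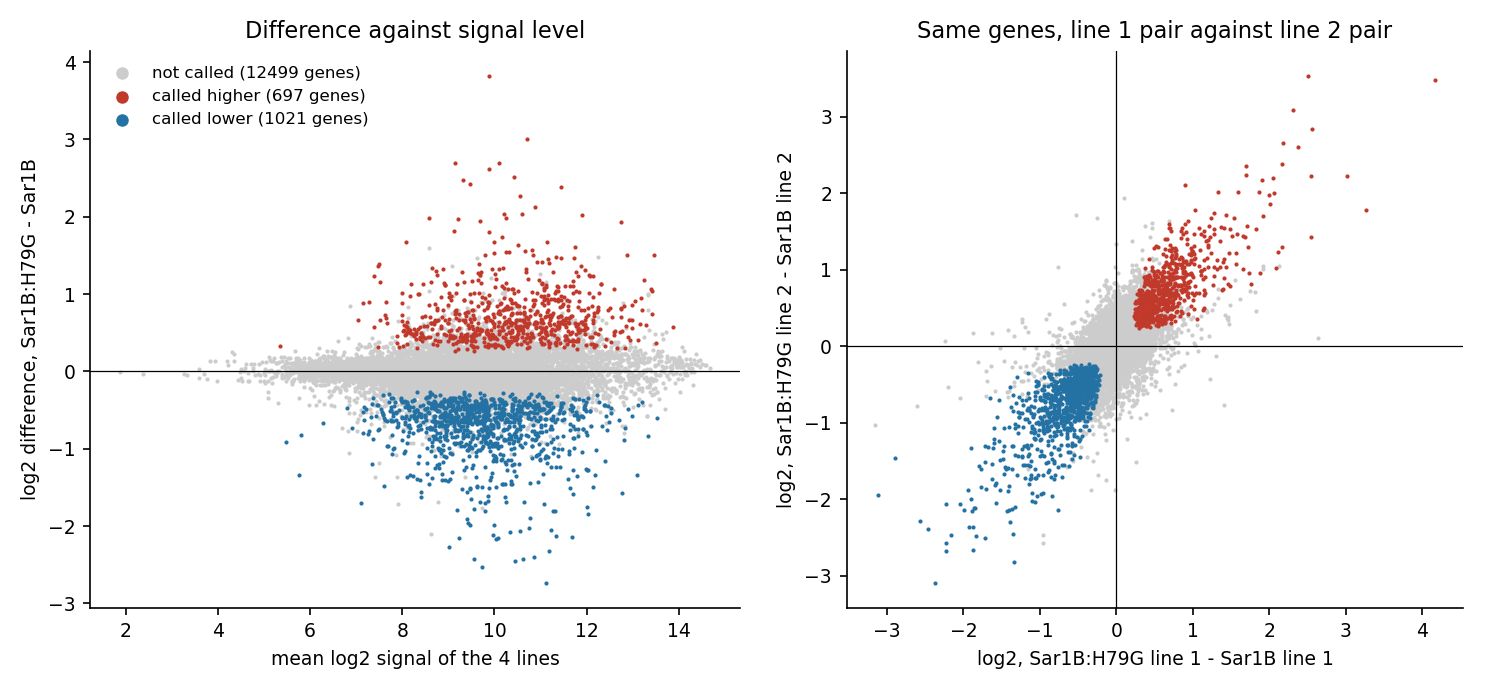
Left, log2 difference (Sar1B:H79G minus Sar1B) of 14217 genes against the mean log2 signal of the 4 lines. Right, the difference between the lines numbered 1 (x axis, log2) against that between the lines numbered 2 (y axis, log2) for the same genes. Red marks the 697 genes called higher, blue the 1021 called lower and grey the others; calls are few at the dim end, and called genes lie in the upper right or lower left of the right panel.

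The Sar1A and control lines lay with the Sar1B lines for most called genes, but not for all. Of the 697 genes called higher, the Sar1A line lay nearer to the Sar1B mean in 613 (87.9%) and the control lines in 636 (91.2%), and both lay nearer to the Sar1B:H79G mean in 27. Of the 1021 genes called lower, the Sar1A line lay nearer to the Sar1B mean in 750 (73.5%) and the control lines in 765 (74.9%), and both lay nearer to Sar1B:H79G in 131. Anxa1, which encodes the phospholipid-binding protein annexin A1, is 1 of these 131. Its signals were 8.26 and 8.68 in the Sar1B:H79G lines, 11.37 and 10.63 in the Sar1B lines, 8.86 in the Sar1A line and 8.63 and 9.05 in the control lines, so that only the Sar1B lines were high.

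The largest rise was that of Lcn2, which encodes lipocalin 2, a secreted iron-siderophore carrier of the acute phase. Its 8 Sar1B:H79G arrays ran from 11.04 to 12.65 with a median of 11.78, and its 8 Sar1B arrays from 7.43 to 8.30 with a median of 8.03. The groups did not overlap, and the other 3 lines lay between 7.90 and 8.41. The difference of 3.82 (standard error 0.43, adjusted p = 0.0064) is a 14.2-fold rise. Ddit3, the gene of CHOP, was at 12.07 and 12.36 in the Sar1B:H79G lines and at 9.57 and 8.83 in the Sar1B lines, an 8.08-fold rise (difference 3.01, standard error 0.24, adjusted p = 0.0028). Other large and stable rises were those of Arhgef2, a microtubule-associated guanine nucleotide exchange factor (2.70), Atf3 (2.70), Gcnt2, a glycosyltransferase that branches poly-N-acetyllactosamine (2.48), Kdelr3, a KDEL receptor, which retrieves escaped ER proteins (2.42), Ppp1r15a (2.27), Pkib, an inhibitor of protein kinase A (2.13), Trib3 (2.04), Cdr2 (2.03), Zfand2a, a proteasome-associated protein induced by arsenite (2.02), and RT1-T24-4, an MHC class I gene whose signal may be shared with its close relatives (1.99). Tspan13, a tetraspanin, rose by 2.62, but its lowest values were those of the Sar1B lines (8.16 and 8.98), with the Sar1A line at 9.79 and the control lines at 10.18 and 9.97. Ugt2b7 (2.52) likewise lay at 8.92 and 9.41 in the Sar1B lines, 12.18 and 11.19 in the Sar1B:H79G lines and 11.62 in the Sar1A line, and its call was lost without Sar1B line 1, Sar1B line 2 or Sar1B:H79G line 1. Slc7a11, the cystine-glutamate exchanger, rose by 2.38 (lost without Sar1B line 2). Its Sar1A line, at 11.48, lay between the Sar1B lines (10.61 and 9.90) and the Sar1B:H79G lines (13.15 and 12.13). The control lines were at 9.89 and 9.58 for Slc7a11.

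The largest fall was that of Fads1, the delta-5 desaturase of polyunsaturated fatty acids. Its 8 Sar1B:H79G arrays ran from 9.54 to 10.18 with a median of 9.72, and its 8 Sar1B arrays from 12.24 to 12.80 with a median of 12.41. The arrays did not overlap, and the Sar1A and control lines (12.09 to 12.36) lay with the Sar1B lines, a 6.62-fold fall (difference -2.73, standard error 0.17, adjusted p = 0.0019). Tspan12, a tetraspanin of Norrin and Wnt receptor complexes, had the least spread of the large falls, with 9.35 and 9.44 against 11.81 and 11.83 (difference -2.43, standard error 0.07, adjusted p = 0.0011). Other stable falls were those of Insig1, the ER protein that retains the sterol sensor SCAP (-2.45), Sorbs2, an actin adaptor (-2.43), Scd, stearoyl-CoA desaturase (-2.40), Id2, an inhibitor of helix-loop-helix factors (-2.32), Hao2, a peroxisomal hydroxyacid oxidase (-2.27), the growth factor gene Fgf1 (-2.15), Dhcr7 of cholesterol synthesis (-2.15), Fmo1, a flavin monooxygenase (-2.14), Fga, the fibrinogen α chain (-2.13), and the alarmin gene Il33 (-2.11). Mttp, the microsomal triglyceride transfer protein, fell by 2.17 (lost without either Sar1B line) and Nt5e, the surface nucleotidase CD73, by 2.08 (lost without Sar1B line 2). For Hao2 the Sar1A line, at 8.75, lay between the groups. For Mttp the Sar1A line, at 9.78, lay nearer to the Sar1B:H79G lines (8.31 and 9.56) than to the Sar1B lines (11.20 and 11.02). The control lines were at 10.77 and 10.67 for Mttp.

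**Figure D2:**
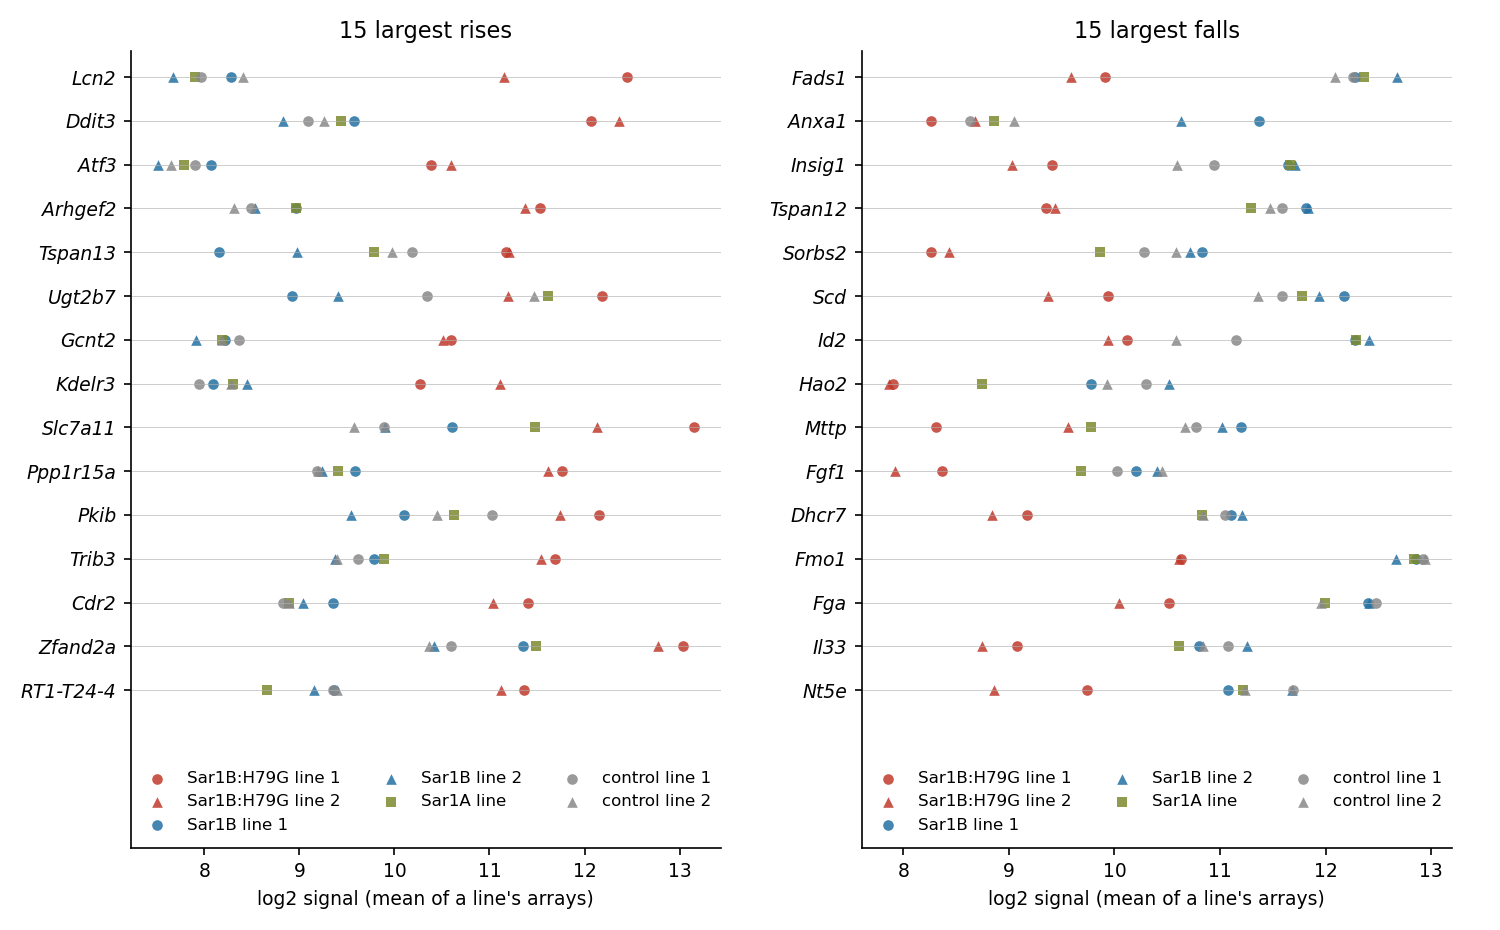
Log2 signal (mean of a line's arrays, x axis) of the 15 largest rises and 15 largest falls, 1 row per gene, with 1 point for each of the 7 lines. For Lcn2, Ddit3 and Atf3 the Sar1A and control lines lie among or next to the Sar1B lines, whereas for Anxa1 and Tspan13 the Sar1B lines lie apart from the Sar1A and control lines.

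Most measured genes of the integrated stress response rose. Of the 22 measured factors and feedback genes, 13 were higher and 2 lower (background 4.9% higher and 7.18% lower), with a median difference of 0.69 beside 0.012 for all genes, and 9 of the 13 rises were stable. Atf4, its central transcription factor, was at 14.02 and 13.67 in the Sar1B:H79G lines and at 12.67 and 12.64 in the Sar1B lines. It rose by 1.18 (adjusted p = 0.018), a call kept only without Sar1B:H79G line 2. Atf3 was at 10.38 and 10.60 against 8.07 and 7.51 (standard error 0.20, adjusted p = 0.0027). Genes that feed back on the response rose with it, namely Ppp1r15a, the subunit of the eIF2α phosphatase (11.76 and 11.62 against 9.59 and 9.24, adjusted p = 0.0017), Trib3, a pseudokinase that restrains ATF4 (11.69 and 11.54 against 9.79 and 9.37), Sesn2, which holds back mTORC1 (1.64), Chac1, which degrades glutathione (1.53), and Ddit4, another brake on mTORC1 (1.34). Eif4ebp1, a translation repressor, rose by 0.88 and Eif2s1, the gene of eIF2α itself, by 0.71. The kinases that sense stress did not rise. Eif2ak3, the ER kinase PERK, was at 9.63 and 9.98 against 9.93 and 9.73 (adjusted p = 0.95), and Eif2ak2 (PKR) and Eif2ak4 (GCN2) fell by 0.57 and 0.47, each kept only without Sar1B line 1. Of the secreted hormones of the response, Fgf21 differed by 0.12 (adjusted p = 0.42) and Gdf15 by 0.67 (adjusted p = 0.30), with Gdf15 arrays of Sar1B:H79G from 8.74 to 11.08. Inhbe, the inhibin βE chain, rose by 1.16 (adjusted p = 0.0027, stable).

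Some genes that supply amino acids to translation rose (background 4.9% higher and 7.18% lower). Of 18 cytosolic aminoacyl-tRNA synthetases, which charge tRNAs, 11 were higher and 0 lower, with a median of 0.54. Sars1 was at 12.48 and 12.76 against 11.40 and 11.22 (difference 1.31, adjusted p = 0.0038) and Eprs1 at 13.16 and 13.09 against 12.02 and 12.08 (1.07, adjusted p = 0.0041). Both groups of lines were well separated for these 2 genes, and Iars1 (1.03), Nars1 (0.82) and Cars1 (0.78) rose too. The rises of Wars1, Tars1, Hars1, Lars1, Yars1 and Qars1 were not stable, and the count of 11 became 7 without Sar1B line 1, 6 without Sar1B line 2 and 6 with Sar1B:H79G line 2 left out. Of 13 mitochondrial synthetases, which come from separate genes, 1 was higher and 1 lower, neither stably. In serine, one-carbon and asparagine synthesis 5 of 15 were higher and 2 lower. Pck2, mitochondrial PEP carboxykinase (1.56), Aldh1l2, mitochondrial formyltetrahydrofolate dehydrogenase (1.54), Aldh18a1 of proline synthesis (0.97) and Psph of serine synthesis (0.93) rose stably, and Asns, asparagine synthetase, rose by 0.84, a call kept only without Sar1B:H79G line 2. The cytosolic counterparts Shmt1 and Aldh1l1 fell by 0.85 and 0.64, neither stably. Of 18 amino acid transporters 7 were higher and 1 lower, and 2 were higher without Sar1B line 2. Slc7a1, the cationic amino acid transporter (0.87), and Slc38a2, a system A carrier (0.73), rose stably, Slc7a5, the large neutral amino acid exchanger, was at 11.02 and 10.92 against 10.87 and 10.80 (adjusted p = 0.53), and Slc38a3, a glutamine carrier of hepatocytes, fell by 1.31. In the methionine pathway Cth, the enzyme that makes cysteine from cystathionine, rose by 1.09 and Gamt of creatine synthesis fell by 1.49.

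ATF4 and its partners bind composite C/EBP-ATF elements, and the letters TGATGNAA were looked for on both strands in the 250 bases before and 50 after the start of 11700 genes with a RefSeq promoter (build GRCr8) and a probe set. They were found in 2.20% of all these promoters, 3.69% of those of genes called higher and 1.64% of those called lower. Among the synthetases 7 of 17 promoters held them, and among the genes of the integrated stress response 5 of 20. The cAMP response element TGACGTCA was found in 2.85%, 5.86% and 1.87% of the same 3 groups, the sterol regulatory element TCACNCCAC in 1.11%, 1.51% and 1.05%, and the antioxidant response element TGACNNNGC in 14.4%, 17.4% and 13.7%. In the same order, these elements were in 1, 1 and 7 of the 20 stress response promoters and in 0, 0 and 4 of the 17 synthetase promoters. Of 14 cholesterol synthesis promoters, 4 held the antioxidant element and 0 held any of the others. Matches of different elements can share letters, and a match is no measured binding site. Of the genes named by the rule given below, 69 called higher had a promoter, and the 4 of them with TGATGNAA are shown. These genes are Trib3 of the feedback arm, Herpud1 of ER-associated degradation, Pck2 of metabolism and Slc7a1 of amino acid uptake. They are from RefSeq GRCr8 at chr3:161275484-161275783 (minus strand, Trib3), chr19:10614658-10614957 (minus, Herpud1), chr15:32997603-32997902 (plus, Pck2) and chr12:11664238-11664537 (plus, Slc7a1), with the element in capitals, in reverse complement in the first 3.
Trib3: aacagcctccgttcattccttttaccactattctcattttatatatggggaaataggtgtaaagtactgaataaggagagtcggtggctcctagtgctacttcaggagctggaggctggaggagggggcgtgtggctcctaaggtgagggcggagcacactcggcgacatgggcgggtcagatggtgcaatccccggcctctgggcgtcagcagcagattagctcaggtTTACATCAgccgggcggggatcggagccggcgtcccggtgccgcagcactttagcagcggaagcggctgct
Herpud1: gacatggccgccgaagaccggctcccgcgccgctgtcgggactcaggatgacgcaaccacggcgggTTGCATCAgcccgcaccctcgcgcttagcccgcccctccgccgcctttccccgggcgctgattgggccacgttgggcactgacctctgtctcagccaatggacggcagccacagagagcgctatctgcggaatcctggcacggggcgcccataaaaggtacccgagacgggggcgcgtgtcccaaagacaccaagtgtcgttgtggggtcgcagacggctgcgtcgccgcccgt
Pck2: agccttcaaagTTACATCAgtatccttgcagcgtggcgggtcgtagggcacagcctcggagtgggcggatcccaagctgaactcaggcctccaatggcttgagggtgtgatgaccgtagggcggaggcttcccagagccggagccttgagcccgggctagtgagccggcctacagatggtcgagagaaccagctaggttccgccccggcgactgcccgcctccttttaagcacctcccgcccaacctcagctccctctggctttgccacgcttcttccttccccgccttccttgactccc
Slc7a1: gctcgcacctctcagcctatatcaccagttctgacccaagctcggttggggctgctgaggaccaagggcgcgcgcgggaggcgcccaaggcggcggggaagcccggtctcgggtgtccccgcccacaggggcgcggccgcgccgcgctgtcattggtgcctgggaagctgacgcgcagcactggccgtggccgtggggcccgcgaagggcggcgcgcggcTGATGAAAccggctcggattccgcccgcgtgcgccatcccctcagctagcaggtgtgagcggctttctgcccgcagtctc
In Trib3 and Slc7a1 the element starts 21 and 30 bases before the gene start, in Herpud1 and Pck2 184 and 239 bases before it.

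Few ER chaperone genes were called, and larger shares of the other ER lists were called higher (background 4.9% higher and 7.18% lower). These were 10.0% of chaperones, 31.6% of sensors and degradation genes, 27.8% of isomerases and oxidases and 29.7% of translocon and glycosylation genes. Of 20 ER chaperones and co-chaperones 2 were higher and 0 lower (4 higher without Sar1B:H79G line 1), with a median of 0.06. Hspa5, the gene of the chaperone BiP, was at 13.85 and 13.74 against 12.96 and 13.14, a stable rise of 0.74 (standard error 0.10, adjusted p = 0.012), and Dnajb9, its co-chaperone, rose by 0.89. Hsp90b1 differed by 0.26 (adjusted p = 0.34), Calr, calreticulin, by -0.35 (adjusted p = 0.073), and Xbp1, which drives many chaperone genes, by -0.04 (adjusted p = 0.95). Of 19 stress sensors and genes of ER-associated degradation 6 were higher and 1 lower, with Herpud1 at 11.41 and 11.77 against 9.98 and 10.06 (1.57, adjusted p = 0.0028), and stable rises of the ubiquitin-conjugating genes Ube2j1 (0.91) and Ube2g2 (0.86), of the sensor Atf6 (0.85) and of Sel1l (0.77). Among 18 disulfide isomerases and ER oxidases 5 were higher and 1 lower, and the selenoprotein genes Selenos (12.56 and 12.57 against 11.21 and 11.20, difference 1.36) and Selenok (1.05) rose stably. That count was 3 without either Sar1B line and 2 without Sar1B:H79G line 2. Of 37 genes of the translocon, signal recognition and N-glycosylation 11 were higher and 2 lower, 6 without either Sar1B line and 4 without Sar1B:H79G line 2. Srpra, the receptor of the signal recognition particle (1.28), Dad1 (1.04) and Stt3a (0.56) of the oligosaccharyltransferase and Srp9 (0.84) rose stably.

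Some transport genes beyond COPII rose at the ER-Golgi boundary (background 4.9% higher and 7.18% lower). Of 22 genes of the COPI coat, which returns membrane from the Golgi to the ER, its Arf GTPases and their regulators, 13 were higher and 1 lower, with a median of 0.63, and 11 of the rises were stable. Arf4 was at 14.34 and 14.10 against 12.62 and 12.80 (1.51, adjusted p = 0.0026) and the Golgi GTPase Arl1 at 12.31 and 12.60 against 10.94 and 11.04 (1.47, adjusted p = 0.0027). Coat subunits Copg1 (1.23), Cope (1.17), Copb1 and Copb2 (1.11 each), Copa (0.91) and Arcn1 (0.83), the Arf activator Gbf1 (0.74) and the GTPase-activating genes Arfgap3 (1.26) and Arfgap1 (0.57) rose. Arfgap2 fell by 0.70 (lost without Sar1B line 2), and Arf1, the main coat-recruiting Arf, was at 13.94 and 13.78 against 13.51 and 13.38 and missed the threshold (0.42, adjusted p = 0.057). COPII genes counted 8 higher and 1 lower of 15, with a median of 0.53, and 4 of the rises were stable. Of 33 ER-Golgi SNAREs, tethers and Rab1 genes 6 were higher and 0 lower. The SNARE gene Sec22b was at 12.18 and 12.21 against 10.77 and 10.67 (1.47, adjusted p = 0.0015), with the Sar1A and control lines between 10.69 and 10.75, and Bet1l rose by 1.51. Retrieval receptors Kdelr3 (10.27 and 11.11 against 8.09 and 8.45) and Kdelr2 (0.95) and the cargo receptor subunit Mcfd2 (1.02) rose stably, as 3 of the 4 rises among 23 cargo receptors and p24 proteins. Golgins gave 6 of 17 higher, 1 without Sar1B line 1 and 2 without Sar1B line 2, and 1 lower, the membrane protein Golm1 (-1.52, stable). Creb3, a membrane-bound transcription factor cleaved in the Golgi that drives Arf4, was at 11.90 and 11.85 against 10.63 and 10.32 (1.40, adjusted p = 0.0028), whereas its liver relative Creb3l3 differed by 0.07 (adjusted p = 0.69).

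Genes of compartments beyond the Golgi moved in both directions (background 4.9% higher and 7.18% lower). Of 36 lysosomal genes 2 were higher and 7 lower, none of them stably, and the 7 became 2 without Sar1B line 1 and 1 without Sar1B line 2. Of 53 Rab GTPases and endosomal genes 2 were higher and 4 lower, close to the background, and the 4 became 1 without Sar1B line 2 and 2 without Sar1B line 1 or Sar1B:H79G line 1. Rab4a of early endosomes fell stably (-0.93). Autophagy counted 5 of 25 higher, 2 without Sar1B line 2 and 3 without either Sar1B:H79G line, with stable rises of Wipi2 (0.79) and Bnip3l (0.62). In ion and zinc transport 5 of 32 were higher and 8 lower. The zinc transporters that load the secretory pathway, Slc30a5 (0.92) and Slc30a7 (0.82) and the chloride exchanger Clcn3 (1.04) rose, and the sodium pump subunit Atp1b1 (-1.23), the potassium-chloride cotransporter Slc12a7 (-0.86) and the surface zinc importer Slc39a8 (-0.82) fell, all stably. The 8 falls became 5 without Sar1B line 1 or Sar1B:H79G line 2 and 4 without either of the other lines. Abcb1a, the P-glycoprotein gene, rose from 9.53 and 8.79 to 10.86 and 10.81 (1.68, adjusted p = 0.013), though its probe set may share signal with its paralog Abcb1b.

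Genes of cytosolic protein quality rose in part (background 4.9% higher and 7.18% lower). Of 25 heat shock genes 7 were higher and 0 lower, with a median of 0.12, and the count was 4 without Sar1B line 2 and 3 with Sar1B:H79G line 2 left out. Hspa4l, an HSP110 nucleotide exchange factor (1.29), and the mitochondrial chaperone Hspa9 (0.70) rose stably. The small heat shock gene Hspb1 was at 13.59 and 13.66 against 12.69 and 11.55, so that the Sar1B lines differed by more than the line 1 gap, and its call was lost without either Sar1B:H79G line. Proteasome subunits gave 7 of 40 higher, but 0 to 3 when any of the 4 lines was left out, and 1 lower, Psmb10, a subunit of the immunoproteasome. Its fall (9.44 and 9.48 against 9.99 and 10.06, difference -0.57, adjusted p = 0.0062) was the only stable call of that list. Cytosolic ribosomal proteins gave 0 of 42 called in either direction, with differences from -0.13 to 0.27, and respiratory chain subunits 0 higher and 1 lower of 65.

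**Figure D3:**
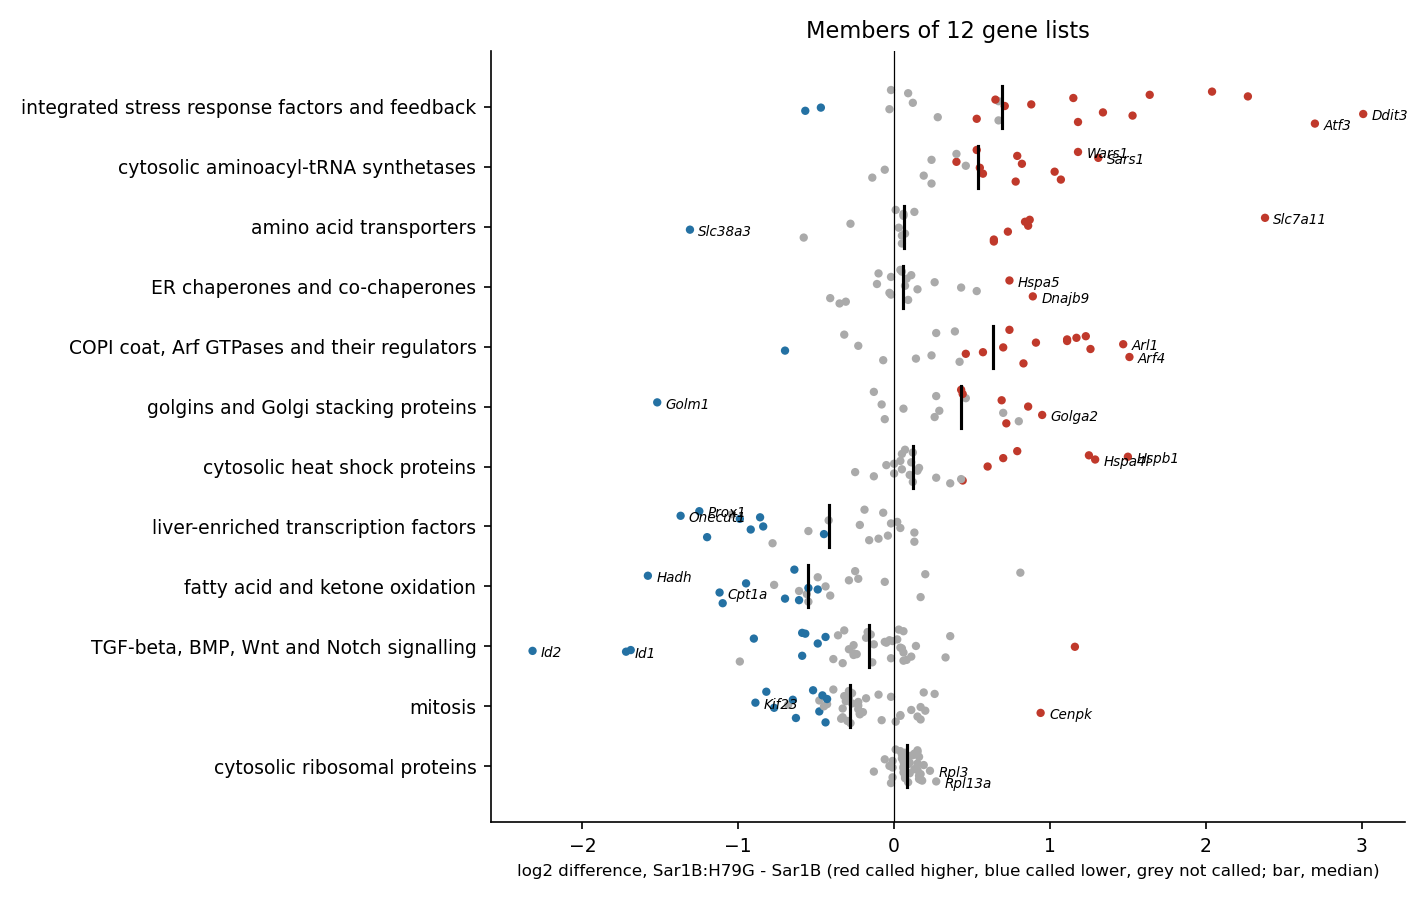
Log2 difference (x axis, Sar1B:H79G minus Sar1B) of each measured member of 12 gene lists, with a bar at the median of each list. Members of the integrated stress response, synthetase and COPI lists lie mostly to the right, liver transcription factors and fatty acid oxidation mostly to the left, and ribosomal proteins lie between -0.13 and 0.27.

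Stress-linked regulators of growth and death moved in both directions (background 4.9% higher and 7.18% lower). Among 36 immediate early and MAPK feedback genes 4 were higher and 4 lower. The AP-1 genes Fosl1 (10.86 and 10.70 against 9.27 and 8.69, difference 1.80) and Jun (1.12) rose stably, and the feedback inhibitor Spry1 fell by 0.80. The 4 rises became 8 without Sar1B line 1 and 2 without Sar1B line 2 or Sar1B:H79G line 1, and the 4 falls became 2 without Sar1B:H79G line 2. Of 27 p53 targets and cell cycle inhibitors 4 were higher and 4 lower, the falls being 1 without Sar1B line 2. Gadd45a (1.68), Cdkn1a, the gene of p21 (11.22 and 11.42 against 10.31 and 9.93, difference 1.20), and Ccng1 (0.72) rose, while Cdkn2a, the gene of the p16 and p19Arf inhibitors, fell by 1.44. Of 30 cell death genes 2 were higher (6.67%, near the background) and 4 lower (13.3%). The caspase genes Casp4 (1.29) and Casp12 (10.51 and 10.11 against 9.12 and 9.01, difference 1.25) rose, and Bid (-0.83), Bak1 (-0.70) and Xiap (-0.59) fell stably. Mitosis genes gave 1 higher and 10 lower of 47, with a median of -0.28. Foxm1, which drives G2/M genes (-0.77), and Spc25 of the kinetochore (-0.82) fell stably and Cenpk rose (0.94), but the 10 falls became 2 without Sar1B line 2 and 6 with Sar1B:H79G line 1 left out. Replication genes gave 2 higher and 7 lower of 43, with stable falls of Tk1 (-0.84) and E2f1 (-0.62), and the 7 became 2 without Sar1B line 2, 3 without Sar1B:H79G line 1 and 4 without Sar1B:H79G line 2.

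Some liver-enriched transcription factors fell. Of 23 factors 0 were higher and 8 lower (background 7.18% lower), with a median of -0.42, and 7 of the falls were stable. Onecut1 (HNF6) was at 7.5 and 7.33 against 8.69 and 8.89 (-1.37, adjusted p = 0.0038) and Foxa2 at 9.65 and 9.64 against 10.97 and 10.71 (-1.20, adjusted p = 0.0037). Hnf4a, a nuclear receptor at the centre of the hepatocyte network, was at 9.88 and 10.00 against 10.89 and 10.82 (-0.92, adjusted p = 0.0030), and the Sar1A and control lines lay between 10.57 and 10.76. Prox1 (-1.25), Nr2f2 (-0.99), Nr5a2 (-0.86) and the oxysterol receptor Nr1h3 (-0.84) fell too. Of 30 acute-phase and carrier genes 1 was higher, Lcn2, and 1 lower, C9 (-1.10). Of 20 coagulation genes 0 were higher and 1 was lower, Fga, which was at 10.52 and 10.04 against 12.40 and 12.41. Its partner Fgg was at 12.44 and 12.52 against 13.35 and 13.01 and was not called (adjusted p = 0.31), and Alb was at 10.96 and 10.99 against 10.61 and 10.96. Whether fewer transcripts per cell or a shift in the share of cells in a state underlies a difference cannot be told apart in these bulk samples.

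Some enzymes of liver metabolism fell in several pathways (background 4.9% higher and 7.18% lower). Fatty acid and ketone oxidation gave 0 higher and 9 lower of 23, with a median of -0.55, and 4 lower without Sar1B line 2. Hadh, the short-chain hydroxyacyl-CoA dehydrogenase of mitochondria, was at 10.95 and 10.86 against 12.57 and 12.40 (-1.58, adjusted p = 0.0019), and the thiolase Acaa2 (-1.10), Eci2 (-0.95) and Acads (-0.70) fell stably. Cpt1a, the gate of fatty acid entry, fell by 1.12 (lost without either Sar1B line). Amino acid catabolism and the urea cycle gave 2 higher and 9 lower of 32. Arg1, arginase, was at 7.61 and 7.60 against 9.02 and 9.43 (-1.62, adjusted p = 0.0034), and Glul, glutamine synthetase (-1.50), Ddc (-1.35) and Fah of tyrosine breakdown (-1.21) fell stably, while Ass1, argininosuccinate synthetase, which uses aspartate, rose by 1.67 (9.39 and 8.44 against 7.28 and 7.21, lost without either Sar1B line). Of 40 cytochrome P450 and flavin monooxygenase genes 0 were higher and 6 lower, with Fmo1 at 10.63 and 10.61 against 12.86 and 12.67 (adjusted p = 0.0015) and the retinoic acid hydroxylase Cyp26a1 at 8.32 and 8.26 against 10.02 and 10.13 (-1.79, adjusted p = 0.0015). Of 38 conjugation enzymes 1 was higher and 8 lower, 5 without Sar1B line 2, with stable falls of Gsta4 (-1.26) and Gstm2 (-1.06). In glucose and glycerol metabolism 4 of 37 were higher, 2 without Sar1B line 2 or Sar1B:H79G line 1, and 7 lower. The glycerol channel Aqp9 (-1.90) and pyruvate kinase Pklr (-1.52) fell, and the glucose transporter Slc2a1 rose (0.75). Among the lipid lists, 15 of 17 cholesterol synthesis genes were lower (median -1.23) and 11 of 18 fatty acid synthesis genes (6 without Sar1B line 2). Of 18 lipoprotein genes 5 were lower, none stably (1 without Sar1B line 2 and 1 with Sar1B:H79G line 1 left out).

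Some signalling and surface genes fell (background 4.9% higher and 7.18% lower). Of 42 genes of TGF-β, BMP, Wnt and Notch signalling 1 was higher, Inhbe, and 9 lower, 5 without Sar1B line 2 or Sar1B:H79G line 2. The falls were led by the Id genes, inhibitors of helix-loop-helix factors and direct targets of BMP signalling in liver. Id3 was at 8.96 and 8.72 in the Sar1B:H79G lines, between 10.51 and 10.62 in the Sar1B and Sar1A lines and at 10.52 and 10.54 in the control lines (-1.69, adjusted p = 0.0017). Id2 was at 10.12 and 9.94 against 12.28 and 12.41, with the control lines lower at 11.15 and 10.58, and Id1 fell by 1.72 (lost without either Sar1B line). Smad1, which carries the BMP signal (-0.90), and Tcf7l2, a Wnt effector (-0.59), fell stably. In growth factor signalling 1 of 39 was higher, the ligand Areg (1.39), and 7 were lower, led by Igf2r, the mannose 6-phosphate receptor (9.87 and 9.74 against 11.64 and 11.34, difference -1.69, adjusted p = 0.0023). Those 7 became 3 without Sar1B line 2 and 4 without either Sar1B:H79G line. In adhesion and junctions 0 of 44 were higher and 8 lower, 5 without Sar1B line 2 and 4 with Sar1B:H79G line 1 left out, with stable falls of the hepatocyte connexin Gjb1 (-1.51), desmoplakin Dsp (-1.18) and syndecan Sdc4 (-0.97). Of 38 genes of NF-κB, cytokines and interferon 2 were higher and 3 lower, a share near the background, but 8 were lower without Sar1B line 2. Nfkbib, an inhibitor of NF-κB, rose by 1.07 and the chemokine Cxcl10 fell by 1.69, both stably.

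The remaining lists held few stable calls (background of all calls 4.9% higher and 7.18% lower). Of 20 clock genes 3 were higher and 4 lower, with Nfil3, a repressor of clock output, the stable rise (0.90), and the 4 falls became 1 without Sar1B line 1, 0 without Sar1B line 2 and 1 with Sar1B:H79G line 2 left out. Of 37 histone and chromatin genes 1 was higher and 6 lower, 2 without Sar1B line 2, with stable falls of the deacetylase Hdac3 (-0.81) and of Uhrf1, which maintains DNA methylation (-0.59). Of 49 genes of extracellular matrix and proteases 1 was higher, Plaur, the urokinase receptor (0.87), and 6 lower, 2 without Sar1B:H79G line 1 and 3 without Sar1B line 2 or Sar1B:H79G line 2, with Agrn, agrin, at 8.76 and 8.65 against 9.90 and 10.06 (-1.28, adjusted p = 0.0020). Of 40 translation factors 4 were higher, 2 without Sar1B line 2 and 7 with Sar1B:H79G line 1 left out, and 1 was lower, 0 whichever of the 4 lines was left out. Eif2b3, a subunit of the exchange factor of eIF2, rose stably (0.77). Of 38 genes of ribosome biogenesis 6 were higher, 3 without Sar1B line 1 and 1 without Sar1B line 2, and 1 was lower, 0 whichever line was left out. Glutathione and NRF2 target genes gave 0 higher and 2 lower of 33, the 2 becoming 0 without either Sar1B line and 1 without Sar1B:H79G line 2, with 2 genes higher there (1 higher without Sar1B line 1). Serpins gave 0 higher and 2 lower of 23, the 2 becoming 0 without Sar1B:H79G line 2 and 1 without any of the other 3 lines, so neither list held a stable call. Bile acid and organic ion transporters gave 1 higher and 2 lower of 29, 1 lower without Sar1B line 1.

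**Figure D4:**
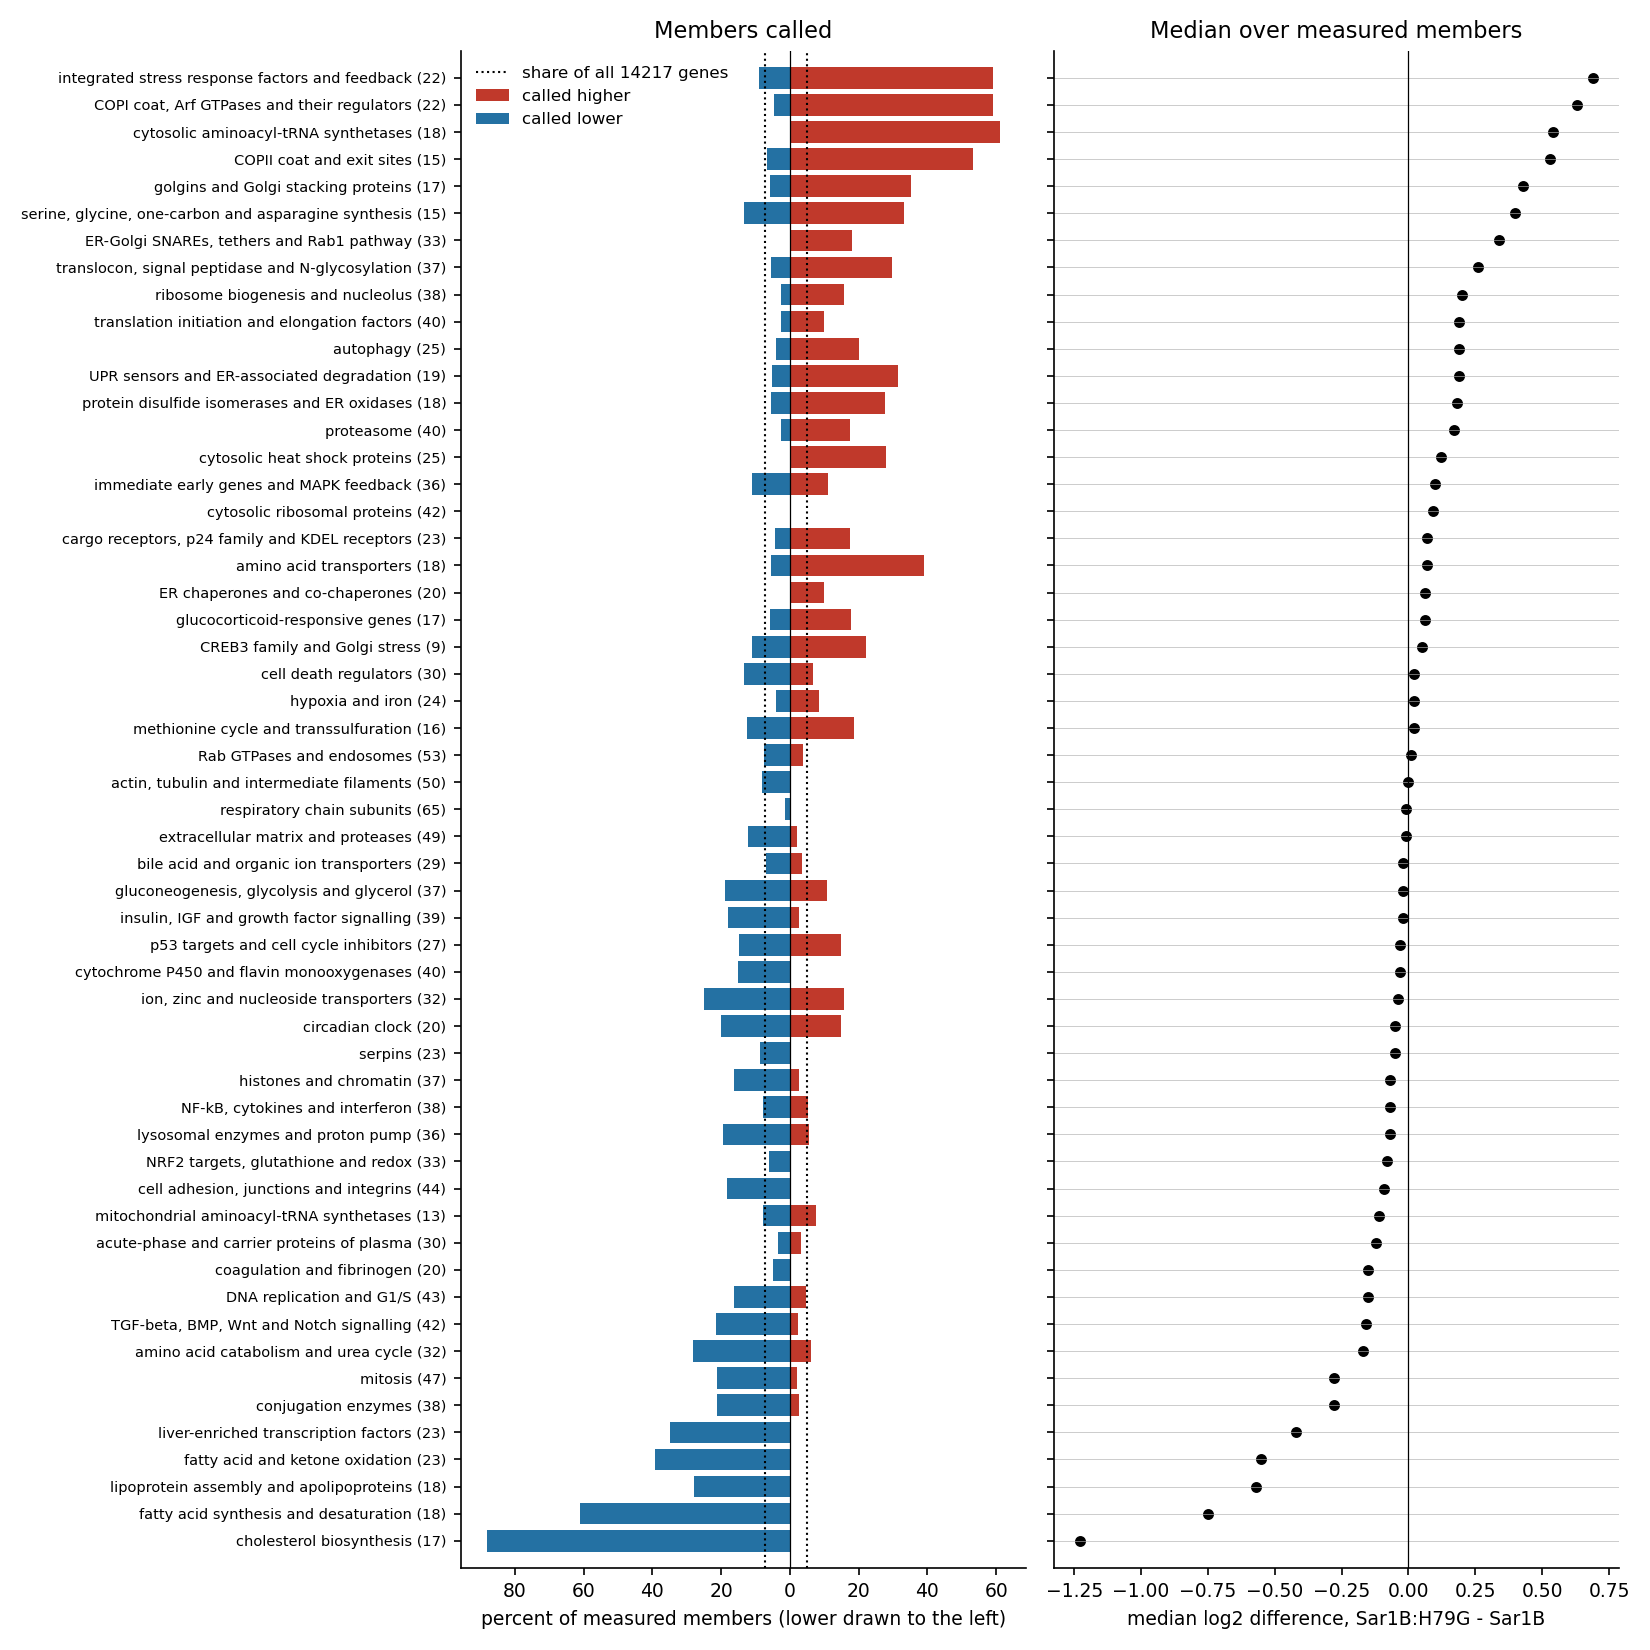
Share of measured members called higher (red, to the right) or lower (blue, to the left) in 55 gene lists, in percent, and the median log2 difference of each list. Dotted lines mark the shares of all genes, 4.9% higher and 7.18% lower, and the number of measured members stands in parentheses; the integrated stress response is at the top and cholesterol synthesis at the bottom.

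In some runs of neighbouring genes the differences had the same sign. Genes above the median signal were put in genomic order, and the median difference was taken over each run of 25 neighbours, a description chosen after the data were seen. There were 26 non-overlapping runs with a median of at least 0.25 in size, 6 positive and 20 negative, holding 650 of 9368 genes. In them 40 genes were called higher and 160 lower. Runs can adjoin, so that 1 shifted stretch can count as several. The run from Mbip to Sav1 (median 0.27) directly follows that from Immp2l to Brms1l. The runs were chosen by the same difference, so nothing is read from these counts, and how many such runs an arbitrary gene order gives was not tested. The widest shift was in the run from Immp2l to Brms1l, with a median of 0.76 and 21 of 25 genes positive. There Sar1B line 1 lay at a median of -0.87 from the median of the 7 lines, Sar1B line 2 at 0.00 and the Sar1B:H79G lines at 0.17 and 0.14. Srp54a, a signal recognition gene, lies in this run and was at 12.44 and 12.38 against 10.68 and 11.57, with the Sar1A line at 11.90. Psma6, a proteasome gene, lies there too and was at 13.93 and 13.92 against 12.55 and 13.18, so that Sar1B line 1 was the lowest of the 7 lines for both genes. Dnajb9, 1 of the 2 called ER chaperone genes, lies in the run as well, at 10.36 and 10.30 against 9.28 and 9.60, with the Sar1A line at 9.0 and the control lines at 9.32 and 9.25, so that Sar1B line 1 was not the lowest there. The neighbours of these 2 genes had medians of 0.72 and 0.71, and Scfd1 (9.12 in Sar1B line 1, between 9.79 and 10.99 in the other lines) was not called.

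The negative runs were smaller and in several of them both Sar1B lines were high. In the run from Pyurf to Rnf181 the median was -0.35, with Sar1B line 1 at 0.39 and Sar1B line 2 at 0.29 and the other 5 lines between -0.09 and 0.00. In the run from Nup133 to Nrp1 the median was -0.37, with 0.21 and 0.24 in the Sar1B lines. In the run from Vegfc to Mfhas1, which holds Sorbs2, the Sar1B:H79G lines were at -0.17 and -0.30 and the Sar1B lines at 0.08 and 0.13. Of the 30 largest rises and falls 5 lay in such runs, Pkib, Sorbs2, Scd, Mttp and Nt5e. The medians of their neighbours were 0.30, -0.36, -0.25, -0.19 and -0.27. Because these genes were picked for large differences, nothing is read from how they compare with their neighbours. Other falls named above also lay in negative runs, namely Cyp26a1 (-1.79) and Smad1 (-0.90) in runs with a median of -0.36, C9 (-1.10) and Slc39a8 (-0.82) in runs of -0.25, Aldh1l1 (-0.64) in one of -0.37, Foxm1 (-0.77) in one of -0.27, E2f1 (-0.62) in one of -0.30, Xiap (-0.59) in one of -0.29 and Psmb10 (-0.57) in one of -0.28. The rises of Gadd45a (12.32 and 11.63 against 10.49 and 10.10) and Aldh18a1 (0.97) lay in negative runs, against the direction of their neighbours. Copy number was not measured, and its part in these runs was not tested.

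**Figure D5:**
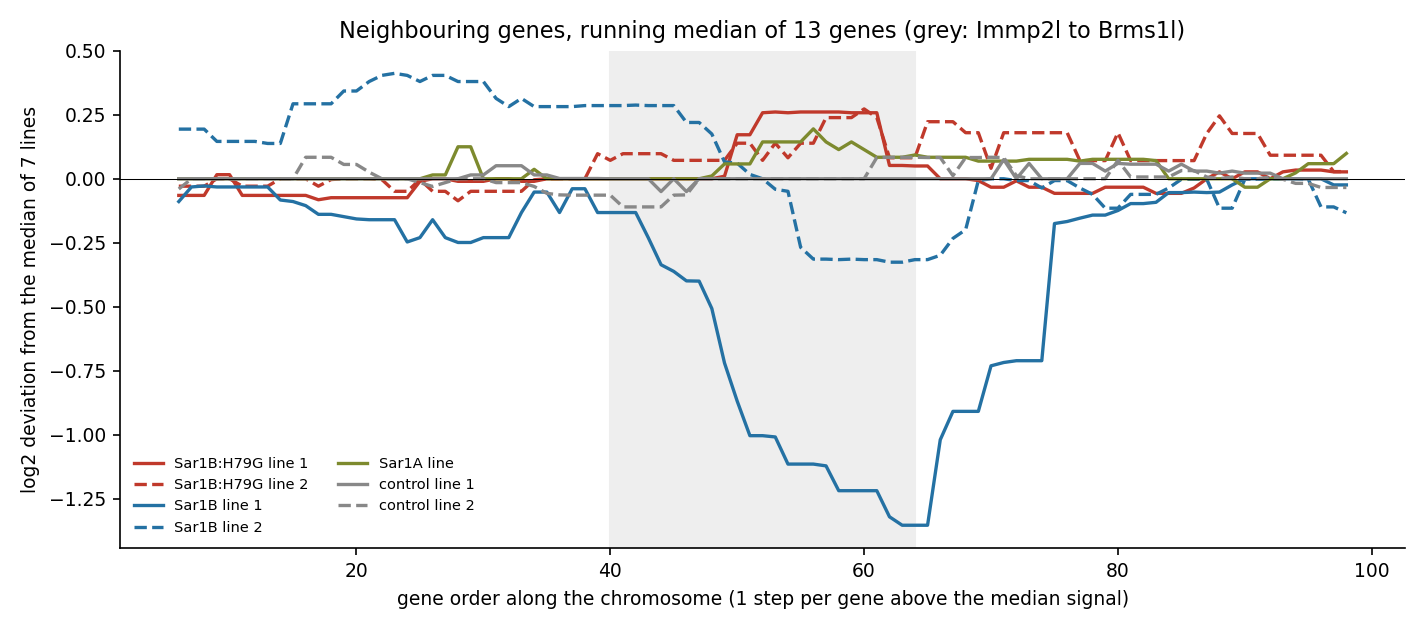
Running median over 13 genes of the log2 deviation of each line from the median of the 7 lines (y axis) against gene order along the chromosome (x axis, genes above the median signal). At the left edge of the grey run from Immp2l to Brms1l, Sar1B line 1 lies close to other lines. Within the run it falls far below the other 6 lines, and it is still low just past the right edge.

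Where a gene had several probe sets, they were rarely called in opposite directions. Of 606 called genes with more than 1 probe set, 293 had another probe set called the same way, 527 had all other probe sets of the same sign, and 0 had another called the opposite way. Among all genes, only Usp9x, which encodes an X-linked deubiquitinase, had probe sets called in both directions. Its probe set called higher was at 9.45 and 9.41 against 8.78 and 9.03 (0.52, adjusted p = 0.020), and its probe set called lower at 8.73 and 8.91 against 9.33 and 9.45 (-0.57, adjusted p = 0.020).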

How the data were processed

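The authors hybridized RNA to Affymetrix rat genome arrays, normalized the signals with loess and the MAS 5 algorithm in CARMAweb, and deposited 1 log2 value per probe set and array. Neither detection calls nor a background level were used here, and base 2 was taken from the span of the numbers. The 57 array controls were left out. Of the other 31042 probe sets, 20826 carried 1 gene symbol. Arrays of 1 line were averaged. The 7 means entered a linear model in limma 3.58.1 under R 4.3.3 (4 group coefficients, 3 residual and 3.16 prior degrees of freedom). The p-values were Benjamini-Hochberg adjusted over all 31042 probe sets and called under 0.05. The replicates are clones, so p-values measure the spread between clonal lines. The study's SAM test on single arrays was replaced, since arrays of a line are technical replicates. On simulated data with 200 changed probe sets, 82% of changes of 1 and 9% of changes of 0.5 (log2) were recovered. There 5 unchanged probe sets were called. In the data 2680 probe sets were called, and with more changes the Benjamini-Hochberg limit is less strict. The simulated shares therefore cannot say how many small changes were missed in the data.

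Genes named are the 15 largest rises and falls among called genes with non-overlapping arrays and a mean signal over that of the median probe set, from each of 55 lists the 3 members with the largest differences, Sar1a, Sar1b and marker genes. Other list members named were chosen after their values were seen. The comparison, the lists and the rule were chosen with earlier results of these data known. The alternatives are given in the closing section. Array precision is limited by 2 lines per group.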

Additional observations from a re-analysis of the deposited data

How the results depend on the processing

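The number of called probe sets (2680, with 1037 higher and 1643 lower) depended most on what counted as a replicate. With each array as a replicate it was 9869 (4117 higher, 5752 lower), with 5654 genes and 912 list members called, and with a random block for the cell line 6879 (2694 and 4185), 4213 and 759. A fit of the 4 lines compared alone gave 1482 (589 and 893), 961 genes and 249 list members, and an adjusted p under 0.01 gave 787 (314 and 473), 533 and 158. When 1 line was left out, the remaining line of that group was assumed to vary like the others, and the count ranged from 1232 to 2115 probe sets (500 to 1056 higher, 732 to 1388 lower), 818 to 1401 genes and 216 to 323 list members, each lowest without Sar1B line 2. Of the 2680 probe sets, 1428 were also called by the fit of the 4 lines and 1071 without Sar1B line 2. Quantile normalization, a shift to equal medians, the filter on dim probe sets, the trend and robust priors, 2 arrays per line and the mean of a gene's probe sets kept these counts within 1.5 times. No called named gene changed sign in any of these settings. The line numbers did not pair the lines (correlations of deviations 0.0071, 0.192 and 0.0752), and with the number as a replicate block 2623 probe sets were called.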

Other observations

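Several called genes outside the lists were chosen after their values were seen. Riok3, an atypical kinase, was at 13.91 and 13.53 in the Sar1B:H79G lines and 11.90 and 11.67 in the Sar1B lines (difference 1.93, limma adjusted p = 0.0027). Il23a, a cytokine subunit, was at 10.17 and 9.87 against 8.25 and 8.17 (1.81, adjusted p = 0.0019) and Emp2, a tetraspan membrane protein, at 11.08 and 10.98 against 9.40 and 9.56 (1.54, adjusted p = 0.0016). Among falls, Car14, a membrane carbonic anhydrase, was at 9.80 and 9.68 against 11.69 and 11.84 (-2.03, adjusted p = 0.0015). Urad of uric acid breakdown was at 9.01 and 9.0 against 10.86 and 11.11 (-1.98, adjusted p = 0.0017), with the Sar1A line at 9.28 near the Sar1B:H79G lines and the control lines at 11.20 and 11.39. Each of these 5 calls was kept whichever of the 4 lines was left out.

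Some large gaps set 1 line apart from the other 6 rather than a group. Sar1B line 1 had 12 genes more than 1 above every other line, among them the interferon-responsive Mx2 (10.19, other lines 8.07 to 8.49), Irf7 (10.68, others 8.28 to 9.16) and Rtp4 (9.13, others 6.97 to 7.64), and the hemojuvelin gene Hjv (9.46, others 7.05 to 7.43). It had 8 genes as far below. Of these, Ppp2r3c, Ralgapa1 and Sptssa lie in the run from Immp2l to Brms1l. Mbip, Mipol1 and Prps1l3 lie shortly after that run. Sar1B:H79G line 1 had 11 genes above, among them Ptgs1, cyclooxygenase 1 (10.04 beside 8.72 in line 2), and Lcn2, and Sar1B line 2 had 1 gene below, Spp1, osteopontin (9.73, others 11.16 to 12.61). Lbp, the lipopolysaccharide-binding protein, varied between clones of both groups, with 10.56 and 7.14 in the Sar1B:H79G lines and 11.52 and 9.71 in the Sar1B lines (difference -1.76, adjusted p = 0.47).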
